A study of Mus musculus with 4 samples.

Results

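The 9 genes described here act in glucose uptake and glucose metabolism: Slc2a2, G6pc2, Pfkfb2, Gapdh, Pkm, Gpd2, Pcx, Me1 and Glud1. They were chosen by name, and each symbol was found once among the 32227 genes of the count matrices. Droplet single-cell RNA-Seq had been run on islet cells of adult mice, with mutant 1 and mutant 2 from Myt3IM/IM mice and control 1 and control 2 from control mice. In the mutants, a short insertion made by gene editing changes the upstream reading frame of Myt3 (St18), a zinc finger transcription factor. The background is given as C57BL/6J, whereas the study's methods name CBA/BL6j mice for the back-cross. The allele is in every cell, so no Cre or transgene restricts it, and a count per gene cannot show the insertion. Each library pooled islets of males and females, according to the study's methods, so its cells cannot be assigned to an animal. The methods name a high-fat diet and inDrop, and the labels, in conflict with them, PIPseq and animals on a normal diet. Diet and platform are the same for mutants and controls in either source. Counts of 3 libraries were read, and no counts of control 1 were analysed here.

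Filters on depth, genes and mitochondrial RNA left 2940, 2040 and 2283 cells in mutant 1, mutant 2 and control 2. Cells were put into classes by the share of hormone UMIs (unique molecular identifiers, each marking 1 captured transcript), and none of the 9 genes took part in the class rule. β cells numbered 2269, 1542 and 2033 in mutant 1, mutant 2 and control 2, α cells 312, 229 and 40, δ cells 25, 35 and 29, and PP cells 53, 35 and 21. All 7 β-cell markers were detected in the β cells of each library and all 5 α-cell markers in the α cells. The 7 β-cell markers were also detected in every other class of each library, and the 5 α-cell markers in its β cells. Detection therefore told no classes apart, and the markers include the hormones that set the classes. The summed acinar markers of β cells ranged from 20.2 to 47.0 CPM (UMIs per 1000000 UMIs of the class). Control 2 stood apart in depth, with a median of 15987 UMIs per β cell against 2752 in mutant 1 and 4508.5 in mutant 2. Ins1 and Ins2 together took 57.1% of its β-cell UMIs, against 41.2% and 43.7%. The labels also give control 2 another batch entry than the remaining libraries, so that genotype, batch and depth cannot be told apart. No cell barcode was shared between libraries.

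β cells sense glucose through its metabolism. GLUT2, the product of Slc2a2, carries glucose across the plasma membrane, phosphorylation traps it, and glycolysis followed by mitochondrial oxidation raises ATP, which closes potassium channels and leads to insulin release. G6pc2 opposes the first step by removing the phosphate again. Rodent β cells pass little pyruvate to lactate and instead feed it into mitochondria, partly as oxaloacetate made by pyruvate carboxylase, and they move cytosolic reducing equivalents into mitochondria by shuttles such as that of the glycerol-3-phosphate dehydrogenases.

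The promoters of 3 members are shown, because Slc2a2 and G6pc2 had the largest differences between β and α cells and opposite directions between libraries, and because Pcx had the highest ratio to control 2. These are the 200 bases before the RefSeq transcript start in GRCm38.p6, 5′ to 3′ on the strand of the gene. RefSeq gives G6pc2 and Pcx a second start each, and the window shown is the one at the start of the GENCODE gene. The labels name GRCm39 for the counts, so these positions are not those of the authors' build. Capitals mark TAAT or its reverse complement ATTA, the core that many homeodomain factors of β cells bind.
Slc2a2, chr3:28697703-28697902, plus strand: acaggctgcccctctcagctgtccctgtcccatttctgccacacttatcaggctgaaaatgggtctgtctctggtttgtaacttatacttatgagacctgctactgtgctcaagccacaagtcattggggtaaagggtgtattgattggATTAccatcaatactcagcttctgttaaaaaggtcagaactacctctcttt
G6pc2, chr2:69210873-69211072, plus strand: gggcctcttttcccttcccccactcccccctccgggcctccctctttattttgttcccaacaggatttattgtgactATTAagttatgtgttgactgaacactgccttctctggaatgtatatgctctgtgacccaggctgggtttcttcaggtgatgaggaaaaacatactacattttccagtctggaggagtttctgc
Pcx, chr19:4510272-4510471, plus strand: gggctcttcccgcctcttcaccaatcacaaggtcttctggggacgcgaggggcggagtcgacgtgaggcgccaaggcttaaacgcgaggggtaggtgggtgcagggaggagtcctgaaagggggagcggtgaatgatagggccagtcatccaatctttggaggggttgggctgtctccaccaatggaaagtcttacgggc
The Slc2a2 window held 1 TAAT match, 51 bases before the start, and the G6pc2 window 1, 123 bases before it, whereas the Pcx window held 0. TAAT on either strand was found in 47.0% of 32851 promoter windows of this length, and CCAAT, which the Pcx window held 3 times and the Slc2a2 window 2 times without overlap with TAAT, in 29.3%. At the second starts, the G6pc2 window held 2 TAAT and 2 TGCTGA matches and the Pcx window 1 TAAT match. TGCTGA and CACGTG were found in none of the 3 windows shown, and GGGCGG 1 time in that of Pcx. In the GENCODE vM21 annotation of GRCm38, Slc2a2 spans chromosome 3 from 28697903 to 28731359, G6pc2 chromosome 2 from 69211073 to 69227841 and Pcx chromosome 19 from 4510472 to 4621752, and all are protein-coding.

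In the comparison of cell classes, Slc2a2, G6pc2, Pfkfb2 and Pcx were higher in β cells than in every other endocrine class, with the larger differences for Slc2a2 and G6pc2 against α and PP cells but not for Slc2a2 against δ cells, and Glud1 was higher in α and PP cells. The question was which of these genes are restricted to β cells in the same libraries. UMIs were summed per class and library, which gave 12 sums, and classes were compared within libraries by edgeR's quasi-likelihood test with Benjamini-Hochberg adjustment over 4928 genes. Differences below are log2 differences after TMM scaling, β cells minus the other class, ± SE. Levels are given as CPM of all UMIs in the class, with exact 95% Poisson intervals that cover counting error only. Of the 9 members, 6 were called higher and 1 lower in β than in α cells, against 18.7% and 18.3% of all genes. Against δ cells, 5 were higher and 0 lower (all genes 10.4% and 8.64%; 0 members were lower at an unadjusted p under 0.05 or by DESeq2), and against PP cells 6 were higher and 1 lower (all genes 11.6% and 10.7%).

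**Figure D1:**
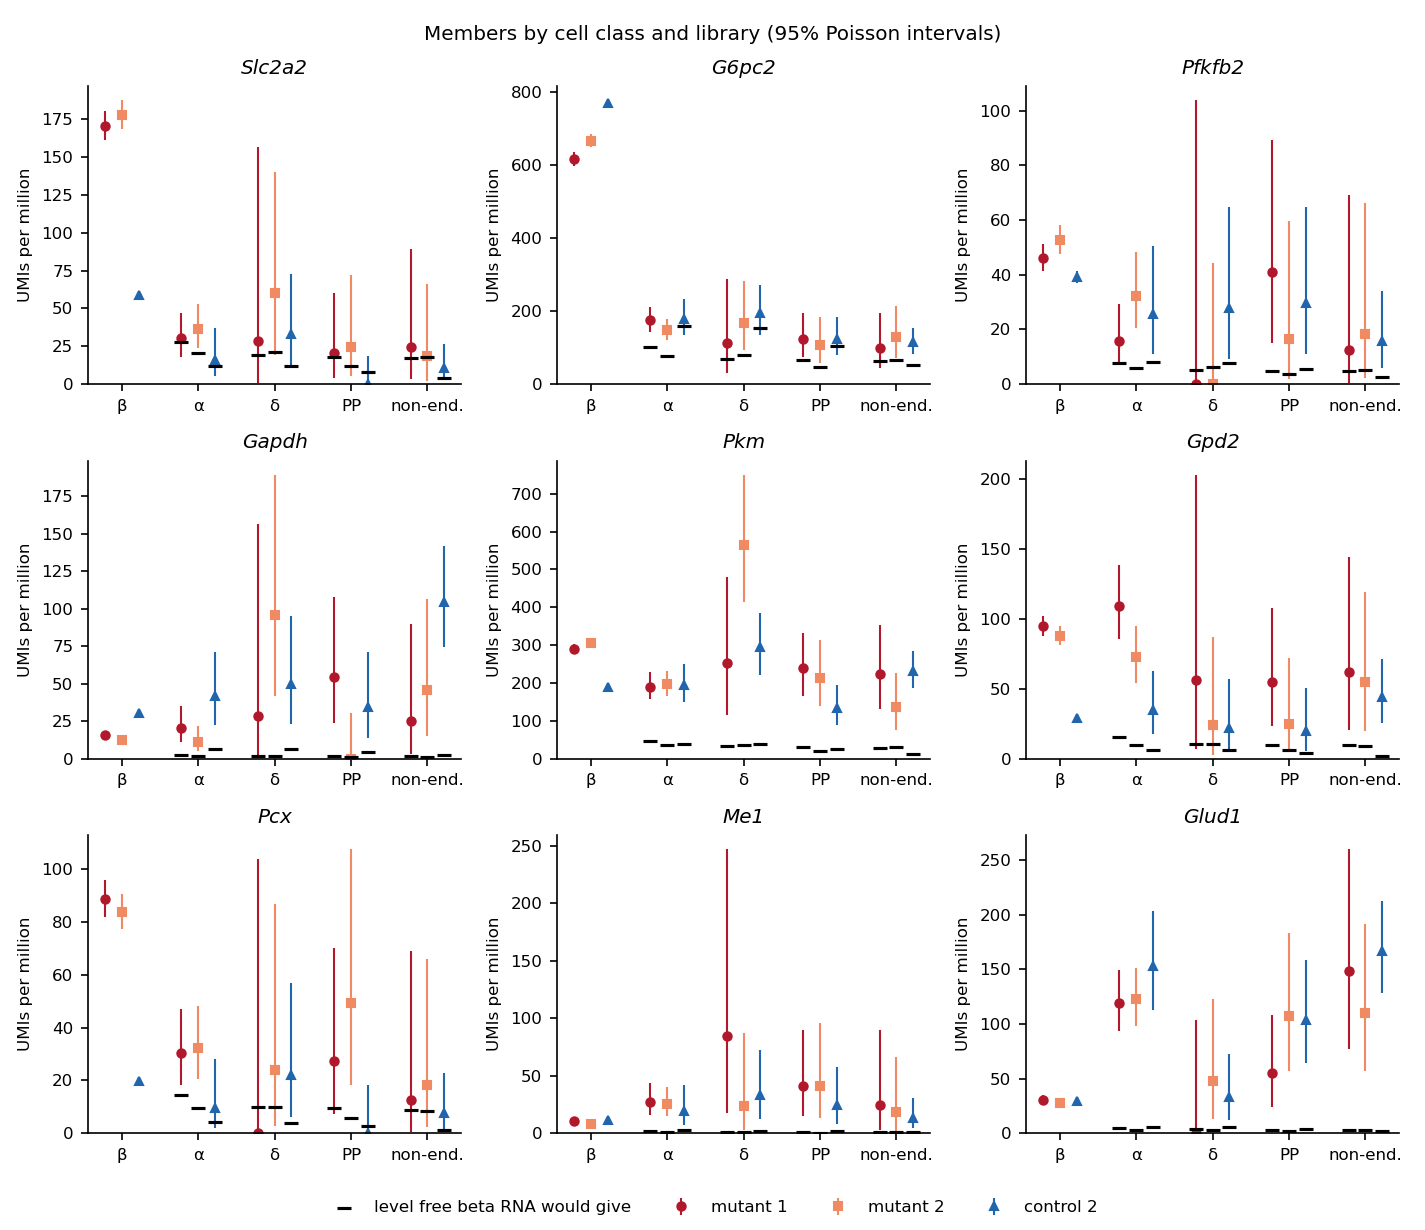
Levels of the 9 members in CPM (y axis) in β, α, δ, PP and non-endocrine cells (x axis) of mutant 1, mutant 2 and control 2, with 95% Poisson intervals as bars; black dashes give the level that free β-cell RNA would give. Slc2a2 and G6pc2 stand above all other classes in β cells of every library, and Glud1 is lower in β than in α cells of every library.

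Slc2a2 measured 171 (161 to 181) CPM in β cells of mutant 1, 178 (169 to 188) in mutant 2 and 58.7 (56.2 to 61.3) in control 2. In α cells it measured 30.2, 36.3 and 16.0. β cells were above every other class in each library, and their interval met that of another class in 1 case, the δ cells of control 2 (12.2 to 72.5). The log2 difference was 2.83 ± 0.23 against α cells (adjusted p = 6.3e-11), 2.33 ± 0.34 against δ cells (adjusted p = 7.0e-06) and 3.82 ± 0.39 against PP cells (adjusted p = 1.2e-08). PP cells held 3, 3 and 0 UMIs of Slc2a2, and the interval of the 0 in control 2 reaches 18.3 CPM.

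Free RNA from lysed β cells enters every droplet, and its part can be set by insulin. The insulin share of α cells was 16.4%, 11.4% and 20.6% of that of β cells in mutant 1, mutant 2 and control 2. If all of it were β-cell RNA, α cells would carry 28.0, 20.2 and 12.1 CPM of Slc2a2. These levels lie within the Poisson intervals measured in mutant 1 (18.2 to 47.1) and control 2 (5.19 to 37.3) and just below that in mutant 2 (23.7 to 53.2). Non-endocrine cells, which are marked by endothelial, mesenchymal or leukocyte genes, held 2, 2 and 4 UMIs of Slc2a2, or 24.8, 18.3 and 10.4 CPM. In α cells of mutant 1 and control 2, Slc2a2 could thus not be told from free RNA at this depth.

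G6pc2, the islet form of the glucose-6-phosphatase catalytic subunit, measured 616, 666 and 769 CPM in β cells of mutant 1, mutant 2 and control 2. In α cells it measured 175 (144 to 211), 147 (120 to 178) and 179 (135 to 232), and free β-cell RNA would give 101, 75.8 and 159. The α-cell level thus exceeded the free RNA level in both mutant libraries and not in control 2, where the interval holds it. With the stricter class rule the free RNA level of control 2 was 61.2, just under the interval measured (61.9 to 157), so the exception depends on the class rule. Non-endocrine cells measured 99.2 (42.8 to 195), 128 (70.0 to 215) and 115 (83.4 to 154), where free RNA would give 62.0, 66.7 and 52.5. They exceeded that level in mutant 2 and control 2, so an excess over it does not by itself show expression in α cells. The log2 difference was 2.60 ± 0.17 against α cells (adjusted p = 1.4e-12), 2.97 ± 0.22 against δ cells (adjusted p = 4.6e-11) and 3.04 ± 0.21 against PP cells (adjusted p = 9.9e-12). Slc2a2 and G6pc2 passed the test against all other classes under every alternative that gave them a value, the omission of each library included. Of these alternatives, the stricter class rule kept 3, 4 and 11 δ cells in mutant 1, mutant 2 and control 2. Sums under 10 cells were left out, so its δ-cell comparison rested on control 2 alone and is not a test over libraries.

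Pfkfb2 makes the enzyme that sets fructose-2,6-bisphosphate, an activator of phosphofructokinase. It measured 46.1, 52.6 and 39.1 CPM in β cells (mutant 1, mutant 2, control 2), and 15.9, 32.1 and 25.6 in α cells. It was higher in β cells by 1.47 ± 0.28 than in α cells (adjusted p = 1.1e-04) and by 2.39 ± 0.55 than in δ cells (adjusted p = 0.0020). The δ-cell sums held 0, 0 and 5 UMIs, so that the δ-cell difference rests on control 2, without which no fold can be given. Against PP cells the log2 difference was 1.11 ± 0.40 (adjusted p = 0.047), and this call was lost without mutant 1 (adjusted p = 0.090) or mutant 2 (adjusted p = 0.33).

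Pkm, pyruvate kinase, measured 289, 306 and 189 CPM of all UMIs in β cells and 191, 197 and 195 in α cells of mutant 1, mutant 2 and control 2. β cells were above α cells in both mutant libraries and not in control 2. δ cells measured 253 (116 to 481), 565 (415 to 751) and 294 (220 to 385), and the δ-cell values of mutant 2 and control 2 lay above those of β cells. TMM scaling is set by the bulk of genes rather than by total UMIs, of which hormone RNA fills much in a β cell. After TMM scaling, Pkm was higher in β than in α cells by 0.99 ± 0.18 (adjusted p = 6.4e-05) and than in PP cells by 0.94 ± 0.21 (adjusted p = 0.0014). Against δ cells the log2 difference was 0.35 ± 0.21 (adjusted p = 0.28). The direction depended on the scaling: with totals of all UMIs in place of TMM, Pkm was lower in β than in δ cells (-0.58 ± 0.23, adjusted p = 0.037). The calls against α and PP cells were lost there, at 0.42 for each (adjusted p = 0.071 and 0.16). That scaling moved the median log2 difference of all genes from 0.01 to -0.55 against α cells, from 0.07 to -0.88 against δ cells and from near 0 to -0.52 against PP cells. It turned the calls over all genes against α cells from 921 higher and 903 lower to 307 higher and 2386 lower.

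Gapdh, the glycolytic dehydrogenase, did not pass the test in any class comparison as reported. With the stricter class rule, which left δ cells of control 2 alone, its log2 difference against δ cells was 1.26. With totals of all UMIs in place of TMM, Gapdh was called lower in β than in δ cells (adjusted p = 0.022). It measured 15.5, 12.6 and 30.8 CPM in β cells of mutant 1, mutant 2 and control 2, from 110, 96 and 1086 UMIs, and 20.7, 11.2 and 41.5 in α cells. The highest values were 104 (74.5 to 142) in non-endocrine cells of control 2 and 96.1 (41.5 to 189) in δ cells of mutant 2. The log2 difference was 0.34 ± 0.38 against α cells, -0.52 ± 0.52 against δ cells and -0.14 ± 0.52 against PP cells, with adjusted p-values of 0.50, 0.55 and 0.90. Mouse Gapdh has many near-identical processed copies, and how reads shared with them were counted is not given in the sources used here, so its level is uncertain.

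Pcx, pyruvate carboxylase, measured 88.7, 83.6 and 19.9 CPM in β cells (mutant 1, mutant 2, control 2) and 30.2, 32.1 and 9.59 in α cells. β cells were thus above α cells in every library, on 3 α-cell UMIs in control 2. The log2 difference was 1.93 ± 0.27 against α cells (adjusted p = 1.4e-06), 2.11 ± 0.51 against δ cells (adjusted p = 0.0029) and 1.98 ± 0.42 against PP cells (adjusted p = 8.5e-04). The δ-cell sums held 0, 2 and 4 UMIs and the PP-cell sums 4, 6 and 0. Over the settings the δ-cell difference ranged from 1.20 with totals of all UMIs to 3.30 without control 2. The call against δ cells held in 8 of 11 settings, the reported one included, and that against PP cells in 10 of 11.

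Gpd2, the mitochondrial glycerol-3-phosphate dehydrogenase, measured 94.8, 88.1 and 29.3 CPM in β cells (mutant 1, mutant 2, control 2), and 110, 72.7 and 35.2 in α cells. These levels overlapped, with α cells above β cells in mutant 1 and control 2. After TMM scaling the log2 difference against α cells was 0.50 ± 0.20 (adjusted p = 0.047), and it was -0.03 with totals of all UMIs. This call held in 3 of 12 settings, the reported one included, and was lost without mutant 1 (adjusted p = 0.10) or mutant 2 (adjusted p = 0.46). Against δ and PP cells the differences were 1.91 ± 0.41 (adjusted p = 9.8e-04) and 1.56 ± 0.33 (adjusted p = 8.9e-04), and both calls were lost without mutant 2 (adjusted p = 0.055 for each).

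Glud1, glutamate dehydrogenase, ran the other way. It measured 30.6, 27.4 and 29.2 CPM in β cells (mutant 1, mutant 2, control 2) and 119 (93.7 to 149), 123 (98.6 to 151) and 153 (113 to 203) in α cells. The groups did not overlap, and free β-cell RNA would add at most 6.03 CPM to α cells. The log2 difference was -1.60 ± 0.19 against α cells (adjusted p = 1.1e-07) and -1.10 ± 0.28 against PP cells (adjusted p = 0.0052), the latter lost without mutant 2 (adjusted p = 0.11) or control 2 (adjusted p = 0.12). Non-endocrine cells measured 149, 110 and 167 CPM. Against δ cells, with 0, 4 and 6 UMIs, the difference was 0.80 ± 0.45 (adjusted p = 0.24).

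Me1, the cytosolic malic enzyme that makes NADPH, was low in β cells, at 11.0, 8.42 and 11.7 CPM from 78, 64 and 414 UMIs in mutant 1, mutant 2 and control 2. α cells measured 27.0, 25.2 and 19.2 on 17, 18 and 6 UMIs. The log2 difference was -0.67 ± 0.35 against α cells, -0.90 ± 0.55 against δ cells and -1.19 ± 0.48 against PP cells, with adjusted p-values of 0.14, 0.29 and 0.077. Without control 2 the difference against α cells was -0.93 and passed the test (adjusted p = 0.020).

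**Figure D2:**
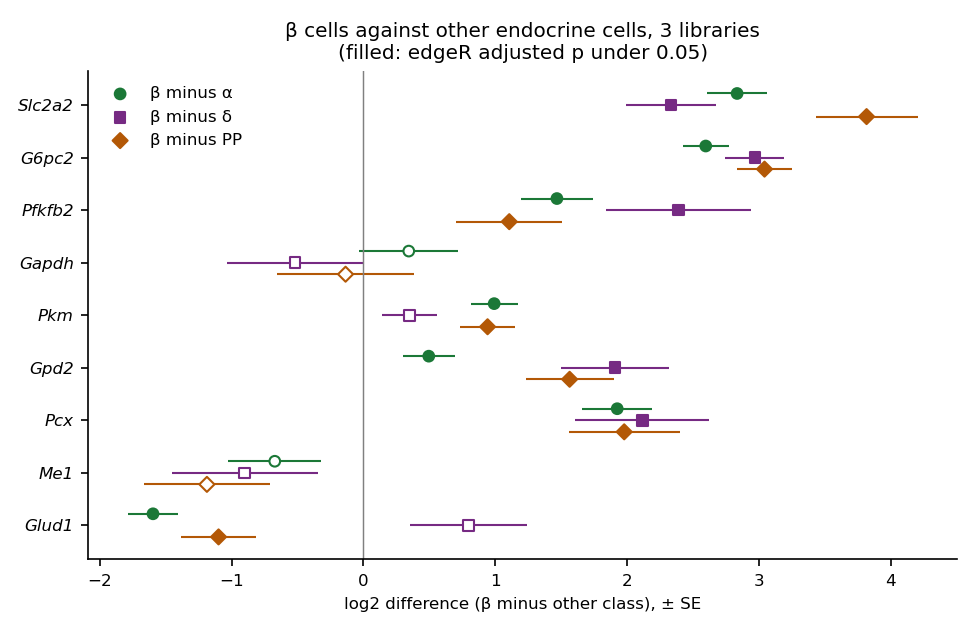
Log2 difference between β cells and α, δ or PP cells (x axis, ± SE over 12 class and library sums) for each member (y axis), with filled points for an edgeR adjusted p under 0.05. Slc2a2, G6pc2, Pfkfb2 and Pcx lie to the right of 0 and are filled in all comparisons, and Glud1 lies to the left against α and PP cells.

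Between libraries, β cells of both mutant libraries had more Slc2a2, Gpd2 and Pcx and less Gapdh than those of control 2, by about the same factor in both, while G6pc2 was lower by amounts that depended on depth and scaling and Glud1 lower in a direction that did not hold in all settings. The question was how glucose-handling genes differ in β cells that carry the Myt3 insertion. With 1 control library there is no test between genotypes, and the ratios below compare libraries. Values are TMM-scaled CPM, and a gene was counted where both log2 ratios to control 2 were past 0.5 in 1 direction and it averaged 20 CPM or more. Of the 9 members, of which Me1 lay under that mean and was not counted, 3 were higher and 3 lower, against 14.4% and 32.6% of 4746 genes. Over all these genes the log2 ratios had medians of -0.20 (mutant 1) and -0.22 (mutant 2). The choice of scaling moved them: CPM of all UMIs gave 0.42 and 0.40, with 1957 genes higher and 578 lower in place of 685 and 1545, and with 4 members higher and 0 lower. Gapdh was still past the fold there (-0.99 and -1.28) and was not counted because its mean of 19.6 CPM lay under the minimum. CPM without hormone and mitochondrial genes gave 1633 higher and 1698 lower.

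Slc2a2 measured 149 CPM in mutant 1, 155 in mutant 2 and 77.2 in control 2. The Poisson intervals were 141 to 158, 147 to 163 and 73.9 to 80.6, so both mutant libraries lay above control 2 and overlapped each other. The log2 ratios were 0.95 and 1.0, higher than those of 94.1% of genes when averaged. With CPM of all UMIs they were 1.54 and 1.60. The study itself reported Slc2a2 transcripts as lower in mutant than in control β cells, from replicated control and mutant samples. That is the opposite direction. The study also reported further β-cell markers as lower, among them the genes given next. In β cells of mutant 1, mutant 2 and control 2, Mafa measured 1600, 1457 and 241 CPM of all UMIs. In the same order, Nkx6-1 measured 962, 907 and 328 and Pdx1 189, 184 and 68.2. These genes were also higher in both mutant libraries than in control 2, so the opposite direction was not limited to Slc2a2. The reason was not tested.

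Pcx measured 77.3 CPM in mutant 1, 72.8 in mutant 2 and 26.2 in control 2, from 631, 636 and 704 UMIs. Its log2 ratios of 1.56 and 1.47 were the highest among the members, below Gapdh in size, and their mean was above that of 98.3% of genes. Gpd2 measured 82.7, 76.7 and 38.5 CPM, with log2 ratios of 1.10 and 0.99. For both genes the mutant libraries differed from each other by 0.11 or less on the log2 scale. Slc2a2, Gpd2 and Pcx stayed above control 2 in every alternative run, with mean log2 ratios from 0.95 to 1.57, from 0.99 to 1.64 and from 1.47 to 2.11.

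Gapdh measured 13.5 CPM in mutant 1, 11.0 in mutant 2 and 40.5 in control 2. Both mutant libraries lay below control 2, with intervals of 11.1 to 16.3 and 8.90 to 13.4 against 38.1 to 43.0. Its log2 ratios of -1.58 and -1.87 were lower than those of all but 4.97% of genes on average, and the mean stayed between -1.87 and -1.0 in every alternative. Me1, with a mean of 10.8 CPM under the minimum, measured 9.56, 7.33 and 15.4 CPM and had log2 ratios of -0.69 and -1.07.

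G6pc2 measured 537 CPM in mutant 1, 580 in mutant 2 and 1012 in control 2. Counting error was small beside these gaps, with an interval of 1000 to 1024 in control 2. The log2 ratios were -0.91 and -0.80. In β cells of 3000 to 6000 UMIs they were -0.16 and -0.10, and with CPM of all UMIs -0.32 and -0.21, so the direction held and the size did not. Glud1 measured 26.7, 23.8 and 38.5 CPM, with log2 ratios of -0.52 and -0.69, and its mean ratio was -0.01 with CPM of all UMIs, -0.21 in cells of 3000 to 6000 UMIs and 0.09 with the mean over cells. The ratios of G6pc2 and Glud1 thus moved with depth and scaling, and the part of depth and of hormone RNA in them was not tested.

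Pkm and Pfkfb2 were past the fold in neither direction. Pkm measured 252, 267 and 249 CPM (mutant 1, mutant 2, control 2), with log2 ratios of 0.02 and 0.10. In cells of 3000 to 6000 UMIs the ratios were 0.59 and 0.66. Pfkfb2 measured 40.2, 45.8 and 51.4 CPM, with log2 ratios of -0.35 and -0.17, and its mean ratio turned to 0.33 with CPM of all UMIs.

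**Figure D3:**
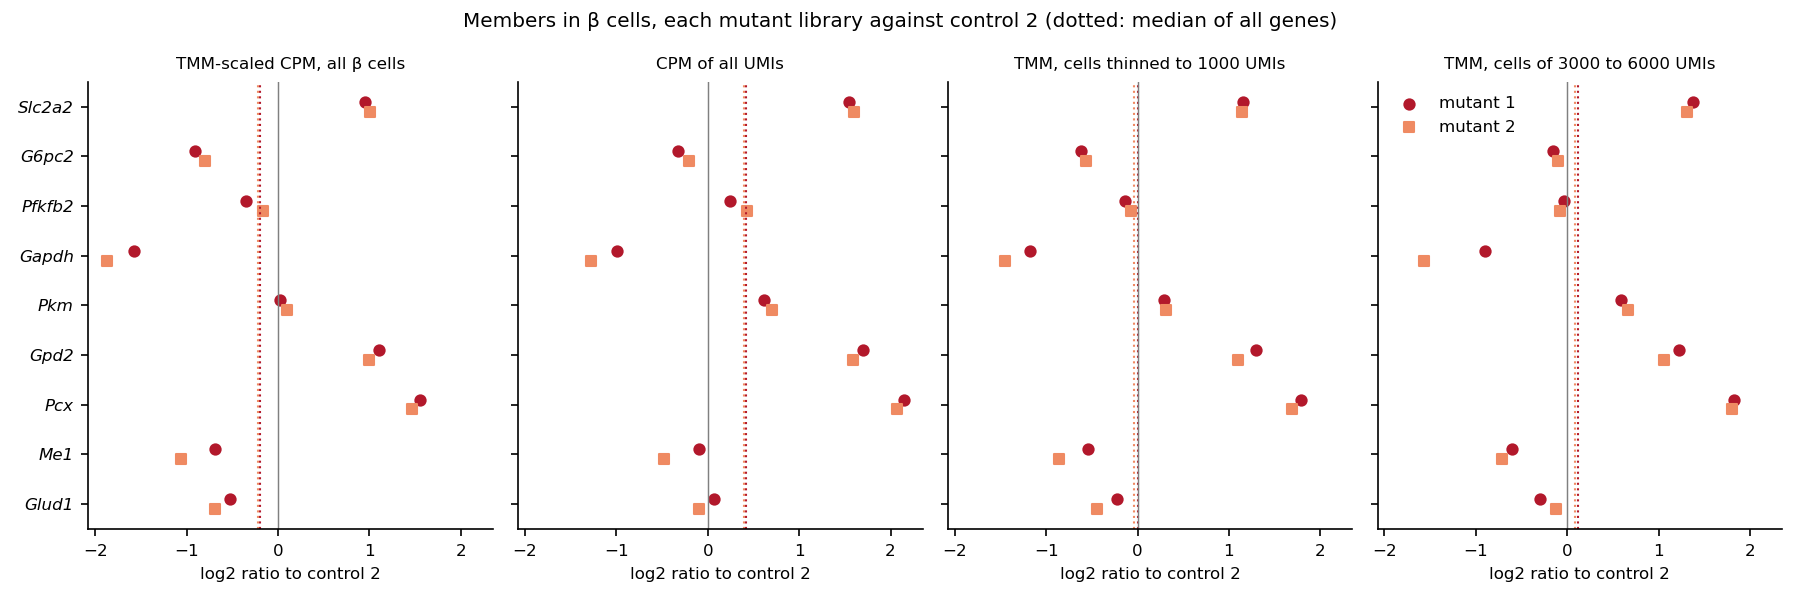
Log2 ratio of mutant 1 and mutant 2 to control 2 (x axis) for each member in β cells (y axis) under 4 settings, with dotted lines at the median of all genes in each mutant library. Slc2a2, Gpd2 and Pcx lie right of 0 and of the median in all panels and Gapdh left of both, whereas G6pc2 moves from -0.91 and -0.80 to -0.16 and -0.10.

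Depth was matched within β cells by setting cells of like total UMIs beside each other, in CPM of all UMIs. The range of 3000 to 6000 UMIs lay below the median depth of control 2 (15987) and above that of mutant 1 (2752). Like depth thus drew on unlike parts of the libraries. In cells of 3000 to 6000 UMIs (822, 618 and 287 cells), Slc2a2 measured 171 (158 to 186) in mutant 1, 174 (159 to 190) in mutant 2 and 74.8 (60.3 to 91.8) in control 2. Pcx measured 85.1, 88.2 and 26.8 there, and Gpd2 95.6, 90.7 and 46.4. For all of these genes the mutant intervals lay above that of control 2 at 3000 to 6000 and at 6000 to 12000 UMIs. Gapdh in the same cells measured 16.3 (12.3 to 21.2), 10.8 (7.25 to 15.3) and 35.0 (25.3 to 47.1), and the intervals again did not meet.

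G6pc2 measured 625 (598 to 652), 686 (655 to 717) and 788 (739 to 839) at 3000 to 6000 UMIs and 624, 665 and 820 at 6000 to 12000, so control 2 was the highest at each depth. Pkm was the reverse, at 292, 325 and 220 at 3000 to 6000 UMIs. Pfkfb2 at 49.6, 50.9 and 57.7, Me1 at 10.2, 10.04 and 17.9 and Glud1 at 27.4, 32.6 and 38.2 had overlapping intervals. Within mutant 2, Glud1 measured 43.5, 32.6, 21.6 and 17.6 from the shallowest to the deepest cells, and 75.1, 65.9, 46.9 and 40.2 with hormone UMIs taken out of the totals. Pcx measured 101, 88.2, 78.6 and 72.9, and 174, 178, 170 and 167 without hormone UMIs, whose share rose from 42.1% to 56.3%. In mutant 2 the trend of Pcx was thus not seen once hormone UMIs were taken out, and that of Glud1 was. Without hormone UMIs, Glud1 in control 2 measured 75.5, 76.0, 68.6 and 76.5 from the shallowest to the deepest cells, with no such trend. In mutant 1 it measured 74.7 at 500 to 3000 UMIs, 55.9 at 3000 to 6000 and 55.0 at 6000 to 12000.

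**Figure D4:**
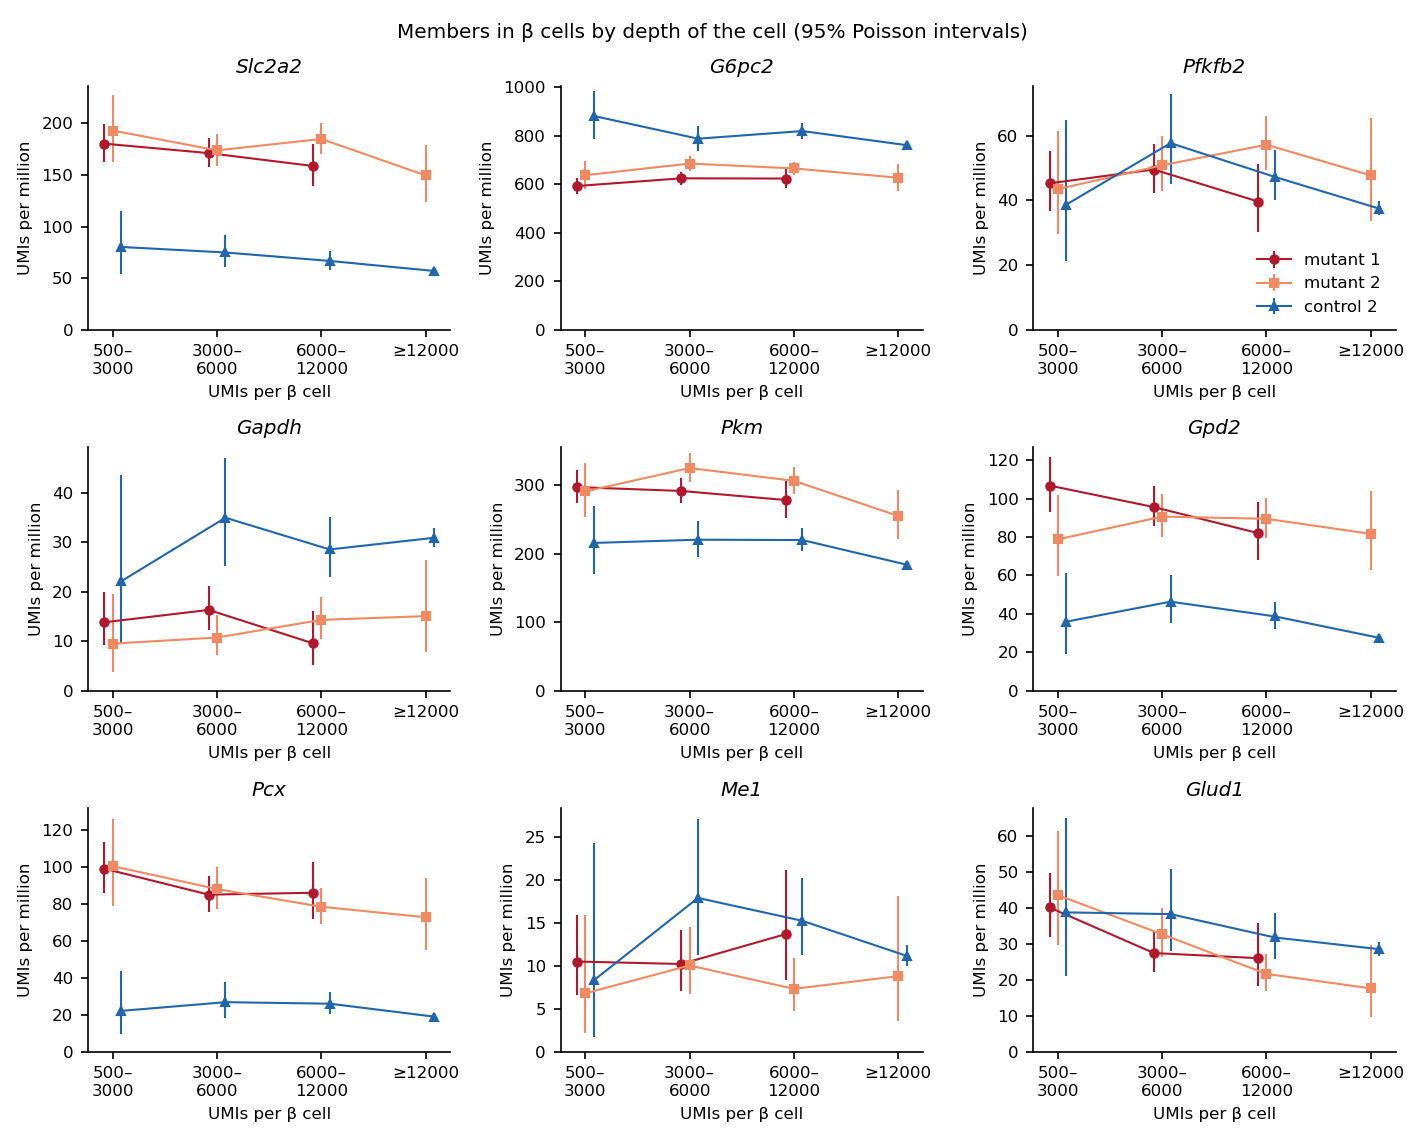
Levels of the members in CPM (y axis) in β cells of 4 depth ranges (x axis, UMIs per cell) for mutant 1, mutant 2 and control 2, with 95% Poisson intervals; ranges under 20 cells, such as the 8 cells of mutant 1 at or above 12000 UMIs, are left out. Mutant points for Slc2a2, Gpd2 and Pcx are above control 2 at every depth shown and those for Gapdh and G6pc2 below it. In the 8 cells left out, Gapdh measured 84.9 (42.4 to 152) CPM, above control 2 at 30.9. Gpd2 measured 23.1 (4.77 to 67.6) there, against 27.5 in control 2, and Slc2a2, Pcx and G6pc2 kept their directions.

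In single cells, a UMI of Slc2a2 was held by 35.7%, 50.2% and 51.1% of the β cells in mutant 1, mutant 2 and control 2, at very different depths. Thinned to 1000 UMIs per cell, which left out 346 and 145 shallower β cells of the mutants and 0 of control 2, the expected shares were 15.8%, 16.2% and 6.20%. The order of the libraries thus differed at equal total UMIs, of which insulin takes a larger share in control 2. For non-endocrine cells, which should lack the gene, thinning gave 1.54%, 2.59% and 1.16%, and their cells held medians of 1339, 1858 and 4958 UMIs.

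The thinned shares of β cells with G6pc2 were 44.8%, 47.5% and 50.5% in mutant 1, mutant 2 and control 2, those with Pkm 25.5%, 26.4% and 18.0%. Gpd2 was found in 9.36%, 8.64% and 3.27% and Pcx in 8.71%, 8.66% and 2.15%. Gapdh was found in 1.48%, 1.25% and 2.85%, and Pfkfb2, Glud1 and Me1 in at most 4.95%, 3.18% and 1.27%. Pcx had the widest relative gap between the libraries, and the shares of Pfkfb2 and Glud1 in mutants and control 2 lay within a single percentage point.

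In the other classes few members had 10 UMIs in each library. In α cells the log2 ratios of mutant 1 and mutant 2 to control 2 were 1.61 and 1.0 for Gpd2, on 69, 52 and 11 UMIs, -0.34 and -0.33 for Glud1, -0.01 and -0.30 for G6pc2 and -0.01 and 0.00 for Pkm. The median of all genes there was 0.10 and 0.11. Gpd2 was thus above control 2 in α as in β cells, and Poisson intervals in α cells of 85.3 to 139, 54.3 to 95.3 and 17.6 to 62.9 CPM met between mutant 2 and control 2. In PP cells G6pc2 had ratios of -0.47 and -0.71, at the level of free β-cell RNA in control 2, and Pkm of 0.35 and 0.14.

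The rest of the pathway was read from 75 genes in 4 lists, none of them a member, of which 36 had at least 20 CPM in β cells. Of these, 6 were past the fold higher in both mutant libraries and 8 lower (all genes 14.4% and 32.6%). The median log2 ratios of the 36 were -0.19 and -0.19, beside -0.20 and -0.22 for all genes. The counts and ratios of the lists are TMM-scaled, and other scalings and depth ranges are not given for them. With CPM of all UMIs the medians of all genes were 0.42 and 0.40. Which list genes lie past the fold, and in which direction, can thus depend on the scaling. The class comparison tested 36 of the 75 as well, but not all the same genes, as its filter on counts differs. Against α cells, 11 of these 36 tested genes were higher in β cells and 2 lower (all genes 18.7% and 18.3%). Against δ cells 6 were higher and 0 lower (all genes 10.4% and 8.64%, with 1 lower at an unadjusted p under 0.05 and 0 by DESeq2). Against PP cells 9 were higher and 1 lower (all genes 11.6% and 10.7%). The medians of these genes and of all genes differed by less than 0.05 between libraries.

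Among the 9 glycolysis genes with at least 20 CPM, Tpi1, triose phosphate isomerase, had log2 ratios of 1.06 and 0.77 and Pfkp, a phosphofructokinase, 0.97 and 0.82. Aldoa, aldolase, had -1.54 and -1.58 and Pgk1, phosphoglycerate kinase, -1.66 and -1.17, next to Gapdh in the pathway and in its direction. Enzymes of neighbouring steps thus differed from control 2 in opposite directions. Eno1, enolase, was higher in β than in α cells by 0.97 ± 0.21 (adjusted p = 4.4e-04), Pgk1 by 0.80 ± 0.28 and Aldoa by 0.68 ± 0.22.

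For pyruvate entry and the Krebs cycle, 2 of 14 genes were higher and 2 lower. Pdha1, the E1 alpha subunit of pyruvate dehydrogenase, measured 462, 378 and 122 CPM (mutant 1, mutant 2, control 2), with log2 ratios of 1.93 and 1.64 that were above those of Pcx, the enzyme that competes for the same pyruvate. Pdhb, its beta subunit, had 1.05 and 0.72. Mpc2, of the mitochondrial pyruvate carrier, had -1.15 and -1.12 and Ogdh, of the 2-oxoglutarate dehydrogenase complex, -0.61 and -0.67. Ogdh lay close to the fold after TMM scaling, so its place among the lower genes may not hold under another scaling. Pdha1 was higher in β than in α cells by 0.95 ± 0.17 (adjusted p = 4.2e-05) and Fh1, fumarase, by 0.65 ± 0.24, whereas Mpc2 was lower by 0.74 ± 0.24.

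Of 10 genes of shuttles, anaplerosis and NADPH, 2 were higher and 4 lower. Glul, glutamine synthetase, had log2 ratios of 1.20 and 0.88 and Acly, ATP citrate lyase, 0.63 and 0.55. Mdh1, the cytosolic malate dehydrogenase, had -1.53 and -1.48 and Taldo1, transaldolase, -0.86 and -0.77. Acly was higher in β than in α cells by 1.35 ± 0.18 (adjusted p = 5.4e-07), Idh2, a mitochondrial isocitrate dehydrogenase, by 1.0 ± 0.21 and Mdh1 by 0.66 ± 0.20. Of the 3 glucose-6-phosphate and gluconeogenesis genes, 0 were past the fold, and Slc37a4, the transporter that takes glucose-6-phosphate to G6pc2, was higher in β than in α cells by 1.70 ± 0.24 (adjusted p = 1.8e-06) and Pck2, the mitochondrial phosphoenolpyruvate carboxykinase, by 0.64 ± 0.21.

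**Figure D5:**
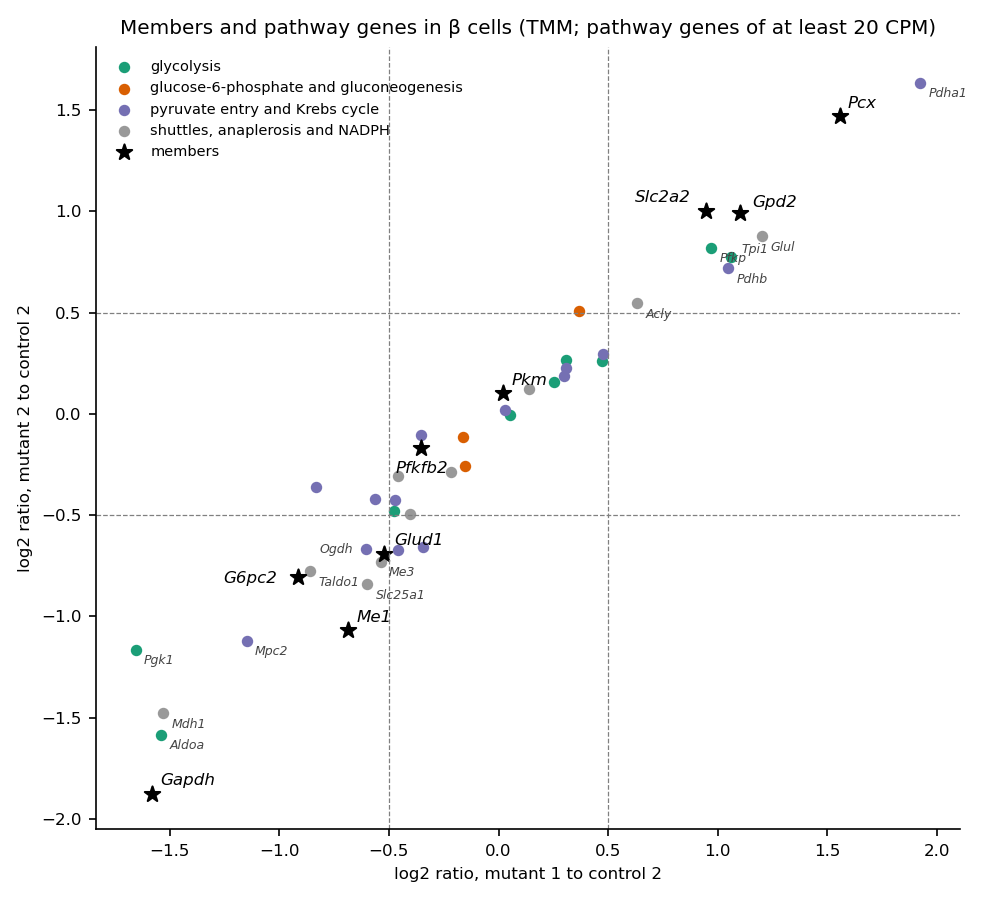
TMM-scaled log2 ratio to control 2 in β cells of mutant 1 (x axis) and mutant 2 (y axis) for the 9 members (stars) and for the 36 pathway genes of at least 20 CPM (dots, coloured by list), with dashed lines at 0.5 and -0.5. Pcx, Slc2a2 and Gpd2 lie at the upper right with Pdha1, Glul, Tpi1, Pfkp and Pdhb, and Gapdh lies at the lower left with Aldoa, Mdh1 and Pgk1.

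Likeness of pattern was described by Pearson's r of TMM log2 CPM over the 12 class and library sums, among 3081 genes that averaged 50 CPM or more. The sums share libraries, depth and classes, so r is a description only. Slc2a2, Pfkfb2, Gapdh, Pcx and Glud1 also had 0 UMIs in at least 1 δ- or PP-cell sum, which set its log2 CPM to -1.37. For Glud1 the remaining sums lay from 4.98 to 7.43, so such zeros in small pools weigh heavily in r. For Slc2a2 the nearest genes were Fam151a (r = 0.96), Ptrhd1 (0.94) and Rasgrf1 (0.91), and for G6pc2 they were Gng12, Atp2a2 and Tmem163 (0.94 each). For Pcx they were Idh3g, a subunit of the NAD-linked isocitrate dehydrogenase (0.96), Tspyl2 (0.93) and Wdr45 (0.91). For Gpd2 they were Chga (0.94), Sidt2 (0.93) and Atp5j2 (0.92), and for Pfkfb2 Sec31a (0.95), Ntrk2 (0.93) and Lman2 (0.92). Glud1 was nearest to Amotl1 (0.98), Arhgap6 (0.98) and Rev3l (0.97). Gapdh, Pkm and Me1 had looser partners, with Rgs9 (0.91), Tcn2 (0.88) and Itgb1 (0.88) first.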

How the data were processed

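Droplet single-cell RNA-Seq of islet cells was read from 3 count matrices (mutant 1, mutant 2 and control 2). Per the study's methods the authors made the deposited counts with DropEst, as UMI counts, whole and not normalized, for each gene in each cell, and the submitters' processing notes name GRCm39 and Seurat. The aligner and the annotation are not given in the sources used here.

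Cells with under 500 UMIs, under 100 genes or over 10% mitochondrial UMIs were removed. A β cell had at least 15% Ins1 and Ins2 UMIs and under 2% of each of Gcg, Sst and Ppy. An α, δ or PP cell had at least 5% of its hormone, and at least 3 times as much of it as of either other non-insulin hormone. Doublets were not called, and cells that met no rule were left out. Classes were compared in edgeR 4.0.16 (R 4.3.3) with the library as a block, 6 residual degrees of freedom and an adjusted p under 0.05. Libraries were compared by TMM-scaled log2 ratios (prior count 1), with no test, because 1 control library was available to the comparison. Totals ranged from 8448466 to 36985253 UMIs, and Poisson and binomial intervals (exact, 95%) cover counting error only. Whether the 3 libraries are independent beyond their pools of animals is not stated. With the library as a block, p-values measure how class differences vary over these libraries. edgeR also draws the variance of each gene toward that of all genes, so they do not rest on the residual degrees of freedom alone.

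Members, lists and tests were chosen with earlier results of these data known. Named are all members, the 2 highest and 2 lowest genes of each pathway list past the fold between libraries, the 2 highest and 2 lowest of those called between β and α cells, and the 3 genes most like each member. All 9 members matched the promoter table, and Aldoa, with 2 rows, was read from the row with more UMIs. Some genes of the pathway are not reported here. Alternatives covered DESeq2 1.42.0, the scaling, thinning, depth ranges, class rules, filters and each library left out. Totals of all UMIs for the class comparison and CPM without hormone genes in the depth range were added after seeing the data. Both steps were tested on simulated data, the class step with the same dispersion for every gene. Of 100 simulated 2-fold differences between β and α cells, 73 were tested and 40 called, so many differences of that size are missed. Of 100 simulated 4-fold ones, 72 were tested and 72 called, and 3 of 2919 unchanged genes were called. The ratio step, simulated with counting error only and with changed genes of at least 50 CPM, recovered 200 of 200 2-fold changes. Members under that level, Gapdh and Glud1 among them, were not covered by it.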

Additional observations from a re-analysis of the deposited data

Results flagged for a closer look

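After TMM scaling, the β-minus-α difference of Me1 was below 0 in both mutant libraries and just above 0 in control 2. It was -0.83 on the log2 scale in mutant 1 and -1.06 in mutant 2, and 0.063 in control 2. In CPM of all UMIs α cells were above β cells in all 3 libraries (27.0 against 11.0, 25.2 against 8.42 and 19.2 against 11.7), so the sign in control 2 depends on the scaling. The difference between genotypes was not tested, and the α-cell values rest on 17, 18 and 6 UMIs. No group held enough libraries to look for a library far from the rest.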

How the results depend on the processing

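No paired analysis was possible because, of the libraries with counts, mutant 2 and control 2 are the only ones to share a replicate number. The library itself is the block of the class comparison. Without it (no replicate block), 2 members were higher and 0 lower in β than in PP cells, against 6 and 1, and 5 and 1 were called against α cells and 4 and 0 against δ cells.

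Slc2a2 and G6pc2 kept their calls in every alternative that gave them a value (Slc2a2 was not tested after thinning), as did in all alternatives the directions of Slc2a2, Gpd2, Pcx and Gapdh between libraries. With library totals of all UMIs, the log2 difference turned to -0.24 for Gapdh and -0.034 for Gpd2 against α cells and to -0.58 for Pkm and -0.15 for Glud1 against δ cells. The counts of members higher and lower became 4 and 2 against α cells, 2 and 3 against δ cells and 4 and 2 against PP cells. After thinning to 1000 UMIs, which left 633 genes tested, they were 2 and 0, 1 and 0, and 2 and 0. The stricter class rule left δ cells of control 2 alone (11 cells), so δ-cell calls under it, those of Slc2a2 and G6pc2 included, are no test over libraries. It gave Gapdh 1.26 against δ and 0.11 against PP cells, and the looser rule gave Glud1 -0.25 against δ cells. Without the filter on low counts Gapdh was at 0.19 against PP cells and 0 members were lower there, and DESeq2's Wald test called 2 lower.

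Leaving out 1 library gave 1 to 2 members lower than in α cells, the highest without control 2, 3 to 5 higher than in δ cells and 3 to 6 higher than in PP cells, the lowest of both without mutant 2. It gave 0 to 1 lower than in PP cells, 0 without mutant 2 or control 2. Gapdh ranged from -1.52 to 0.19 against δ cells, above 0 without mutant 2, and from -0.46 to 0.60 against PP cells, above 0 without mutant 1. Without mutant 1 or mutant 2, 3 members were past the fold higher and 3 lower between libraries.

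Between libraries, 0 members were lower with CPM of all UMIs or the mean over cells, and 1 after thinning, in cells of 3000 to 6000 UMIs or with a minimum of 50 CPM. Gapdh stayed past the fold with CPM of all UMIs, with the mean over cells (-0.81 and -1.20) and after thinning (-1.18 and -1.45), and was left uncounted by its means of 19.6, 19.2 and 19.8 CPM. Pfkfb2 turned to 0.33 with CPM of all UMIs and 0.18 with the mean over cells, and Glud1 to 0.091 with the latter. The causes were not tested.

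Over all genes, 921 were higher and 903 lower in β than in α cells, 514 and 426 against δ and 572 and 527 against PP cells. These counts were 1471 and 773, 1077 and 349, and 1034 and 319 without the filter on low counts (25428 genes tested). They were 241 and 243, 128 and 101, and 132 and 135 after thinning, 288 and 282, 216 and 240, and 204 and 209 without the replicate block, and 307 and 2386, 117 and 2387, and 211 and 1469 with library totals. With 1 library left out, 472 to 1477 were higher than in α cells, 288 to 484 than in δ cells and 275 to 713 than in PP cells. Between libraries, 685 higher and 1545 lower became 1816 and 633 with the mean over cells, 1253 and 904 in cells of 3000 to 6000 UMIs and 1344 and 1833 there without hormone genes. δ- and PP-cell sums held under 10 UMIs of most members, and differences there below the counting error were not detectable at this depth.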

Other observations

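Enzymes and transporters that mature β cells are known to keep low had few UMIs in β cells. They are named here after their values were seen. Ldha, lactate dehydrogenase A, had 38, 17 and 62 β-cell UMIs (mutant 1, mutant 2, control 2), or 4.66, 1.95 and 2.31 TMM-scaled CPM. Slc16a1, the monocarboxylate transporter MCT1, had 1, 2 and 2 UMIs. Hk1 had 14, 20 and 15 UMIs, or 1.72, 2.29 and 0.56 TMM-scaled CPM, so both mutant libraries lay above control 2 in CPM. Hk2 had 8, 1 and 3 UMIs (0.98, 0.11 and 0.11 CPM). Slc2a1, the GLUT1 transporter, had 1, 3 and 33 (0.12, 0.34 and 1.23 CPM). G6pc, the liver form of the phosphatase whose islet form is G6pc2, had 0, 0 and 2 UMIs, and Pck1 had 0, 1 and 11. Levels of Ldha did not order the libraries by genotype, as mutant 1 was the highest and mutant 2 the lowest.

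Genes of the oxidative pentose phosphate pathway had few UMIs in the mutant libraries. Pgd had 12, 18 and 389 UMIs (1.47, 2.06 and 14.5 CPM) and G6pdx 32, 56 and 372 (3.92, 6.41 and 13.9 CPM) in mutant 1, mutant 2 and control 2. Both lay under the minimum of 20 CPM, were named after their values were seen, and were not tested.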
